A study of Sus scrofa with 8 samples.

Results

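The IFIT family (interferon-induced proteins with tetratricopeptide repeats) was examined in single nuclei of the pig retina after intravitreal injection of AAV2.7m8/CAG-GFP, a vector that carries green fluorescent protein (GFP) under the ubiquitous CAG promoter. The members were chosen by name as IFIT1 (ENSSSCG00000010452), IFIT2 (ENSSSCG00000010451), IFIT3 (ENSSSCG00000061268) and IFIT5 (ENSSSCG00000010454), which are 4 of the 35683 features in the count tables, and all 4 were detected. Their levels were read as unique molecular identifiers (UMIs, 1 per captured transcript), summed per retina over the nuclei of each cell class and scaled to counts per 1000000 UMIs of that class (CPM). The study asked how retinal cells respond to the vector, and the question here is in which classes, at which week and by how much these 4 genes differed between AAV-injected and vehicle-injected retinas.

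All animals were female Yucatan minipigs of 3 to 5 months. Both arms received intravitreal Vitrase, a hyaluronidase, 2 weeks ahead of dosing and systemic methylprednisolone from 2 days before dosing and weekly afterwards, so the vehicle-injected retinas carry these agents too. The AAV arm received 5e11 vg/eye and the vehicle arm received buffer. At week 2 the 2 AAV-injected retinas were the left and right eye of 1 pig, and the 2 vehicle-injected retinas were the left and right eye of another pig. At week 4 each arm was made of the left eyes of 2 pigs, here called pig 1 and pig 2 of that arm. By the study's methods its week 4 animals were killed on more than 1 day, part of them early because of inflammation, and the labels do not give the day of these pigs. The batch named in the labels equals the group, and the part of either cannot be told apart.

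IFIT proteins are cytosolic RNA-binding proteins that are nearly absent from resting cells and are among the first products of type I interferon signalling. The factor ISGF3 binds the interferon-stimulated response element (ISRE) in front of these genes, and IRF factors can bind the same element directly. IFIT1 binds the 5′ end of RNAs that lack 2′-O methylation of the cap, IFIT2 and IFIT3 bind each other and IFIT3 stabilizes IFIT1, and IFIT5 binds 5′-triphosphate RNA. In the retina, Müller glia, astrocytes and microglia are known as responders to interferon.

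The 4 genes lay side by side on chromosome 14 of Sscrofa11.1, on the plus strand, in the order IFIT2 (chr14:101193421-101204292), IFIT3 (chr14:101214730-101225169), IFIT1 (chr14:101237403-101249486) and IFIT5 (chr14:101254818-101266105) of the RefSeq annotation. The map of the locus shows that the span of LIPA, a lysosomal lipase gene, runs across IFIT2, IFIT3 and IFIT1 on the minus strand. No other alignment kept by the search matched a member's transcript at 95% identity or more. The transcript of IFIT2 holds a repeat, for which 154 further alignments of at most 91.9% identity were kept. The search limited how many alignments it kept, so this number is not a count of copies.

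**Figure D1:**
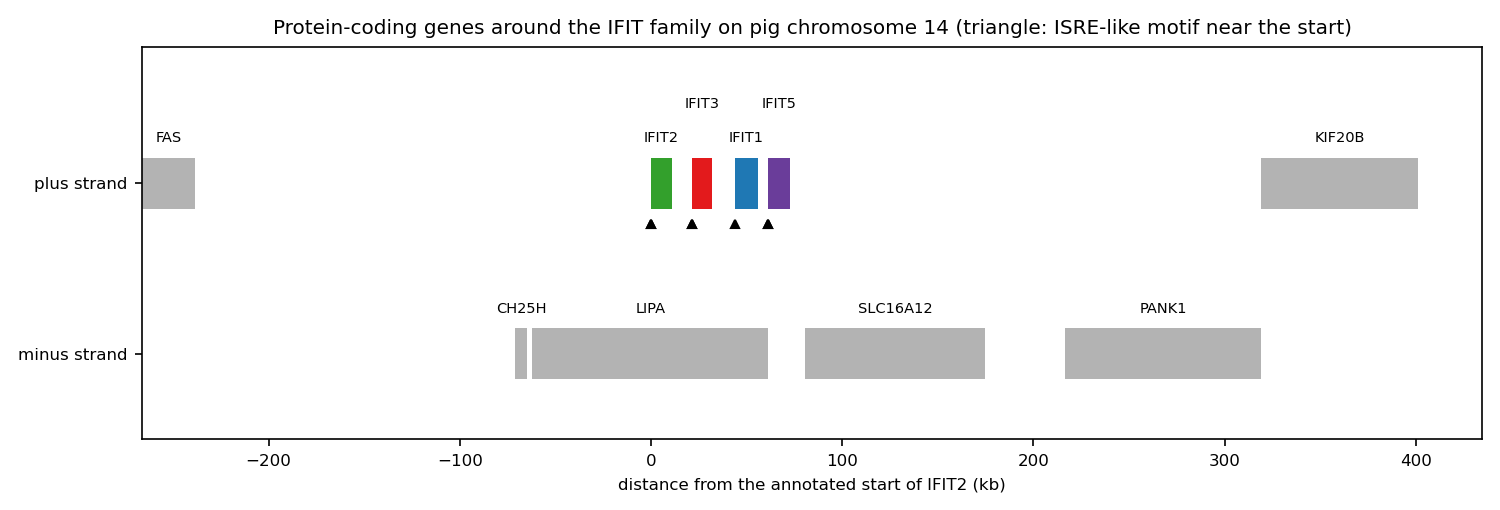
Protein-coding genes around the family by strand; the x axis is the distance from the annotated start of IFIT2 in kb. The 4 members are neighbours on the plus strand, and LIPA on the minus strand spans 3 of them.

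The core of the ISRE was searched as GAAA, any 2 bases and GAAA again, on both strands and with overlaps allowed, in the window from 250 bases before to 50 bases after each annotated gene start. Of 20661 such windows of protein-coding genes, 3.72% held at least 1 match and 0.3001% held 2 or more. All 4 members had a match: IFIT2, IFIT3 and IFIT5 held 2 each and IFIT1 held 1, all on the minus strand, where the plus strand reads TTTC, any 2 bases and TTTC. The stretches that hold these matches are shown because all 4 genes hold such a match near their start, with each match in capitals, 5′ to 3′ on the plus strand.
IFIT1, chr14:101237384-101237413: cctactttaaTTTCACTTTCtactttcagt
IFIT2, chr14:101193446-101193475: tttccagTTTCAATTTCTCTTTCctaaagc
IFIT3, chr14:101214653-101214713: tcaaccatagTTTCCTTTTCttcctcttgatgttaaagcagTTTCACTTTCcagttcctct
IFIT5, chr14:101254566-101254649: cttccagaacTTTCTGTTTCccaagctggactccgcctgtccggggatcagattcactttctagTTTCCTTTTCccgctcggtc
Counted from the annotated start, the matches of IFIT3 began at bases -67 and -36, that of IFIT1 at -9 and those of IFIT5 at -242 and -188. The matches of IFIT2 overlapped and lay at bases 33 and 39, inside the first exon of the annotated transcript and before its coding sequence. None of the 10 other genes within 250 kb of the family had a match in its window. These letters are a description of the windows and not of bound factors.

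The series held 388491 barcodes and 1231686397 UMIs, with 36282 to 49200 nuclei kept per retina at a median of 1994 to 3128 UMIs per barcode. Nuclei were grouped into 64 clusters, of which 50 were named from marker genes, and 7.04% of nuclei stayed unnamed. T/NK cells (2556 nuclei) and B/plasma cells (2712 nuclei) came almost only from the AAV-injected retinas of week 4, which also gave 2059 and 1251 nuclei of the microglia and macrophage class against 126 to 237 in every other retina. In rods, 64.8% and 72.2% of the nuclei of those 2 retinas fell into a cluster other than the one that led in the other 6 retinas, and in Müller glia another cluster led in the AAV-injected than in the vehicle-injected retinas. EGFP, the transgene, was read at 25.6 to 56.3 CPM in the AAV-injected retinas, and at most 1 UMI was found in a vehicle-injected retina. Doublets were not removed, and any 2 lanes of different retinas shared 18 to 62 barcodes.

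Over all nuclei of a retina, IFIT1 stood at 40.4 and 62.6 CPM in the left and right AAV-injected eye of week 2 and at 24.7 and 31.03 CPM in the 2 AAV-injected pigs of week 4, against 1.19 to 1.89 CPM in the 4 vehicle-injected retinas. IFIT2 was read at 8.08 to 32.6 CPM with the vector and at 1.05 to 1.84 CPM with vehicle. IFIT3 lay between 8.28 and 26.4 CPM against 0.448 to 0.636 CPM, and IFIT5 between 7.93 and 12.3 CPM against 1.03 to 1.33 CPM. These levels also move with the makeup of classes in a retina. Müller nuclei numbered 5333 and 5819 in the AAV-injected eyes of week 2 and 2401 and 851 in the AAV-injected pigs of week 4. Rod nuclei of the same retinas numbered 5977 and 11355 at week 2 and 21307 and 25563 at week 4. The part of this makeup in the whole-retina levels was not tested. For every member, all 4 AAV-injected retinas were above all 4 vehicle-injected retinas. The plot of CPM by class shows the same order inside the classes: both AAV-injected retinas were above both vehicle-injected retinas in 9 of 9 classes for each member at each week. How many of all genes were separated in this way was not counted, and the 2 retinas of an arm at week 2 are eyes of 1 pig.

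**Figure D2:**
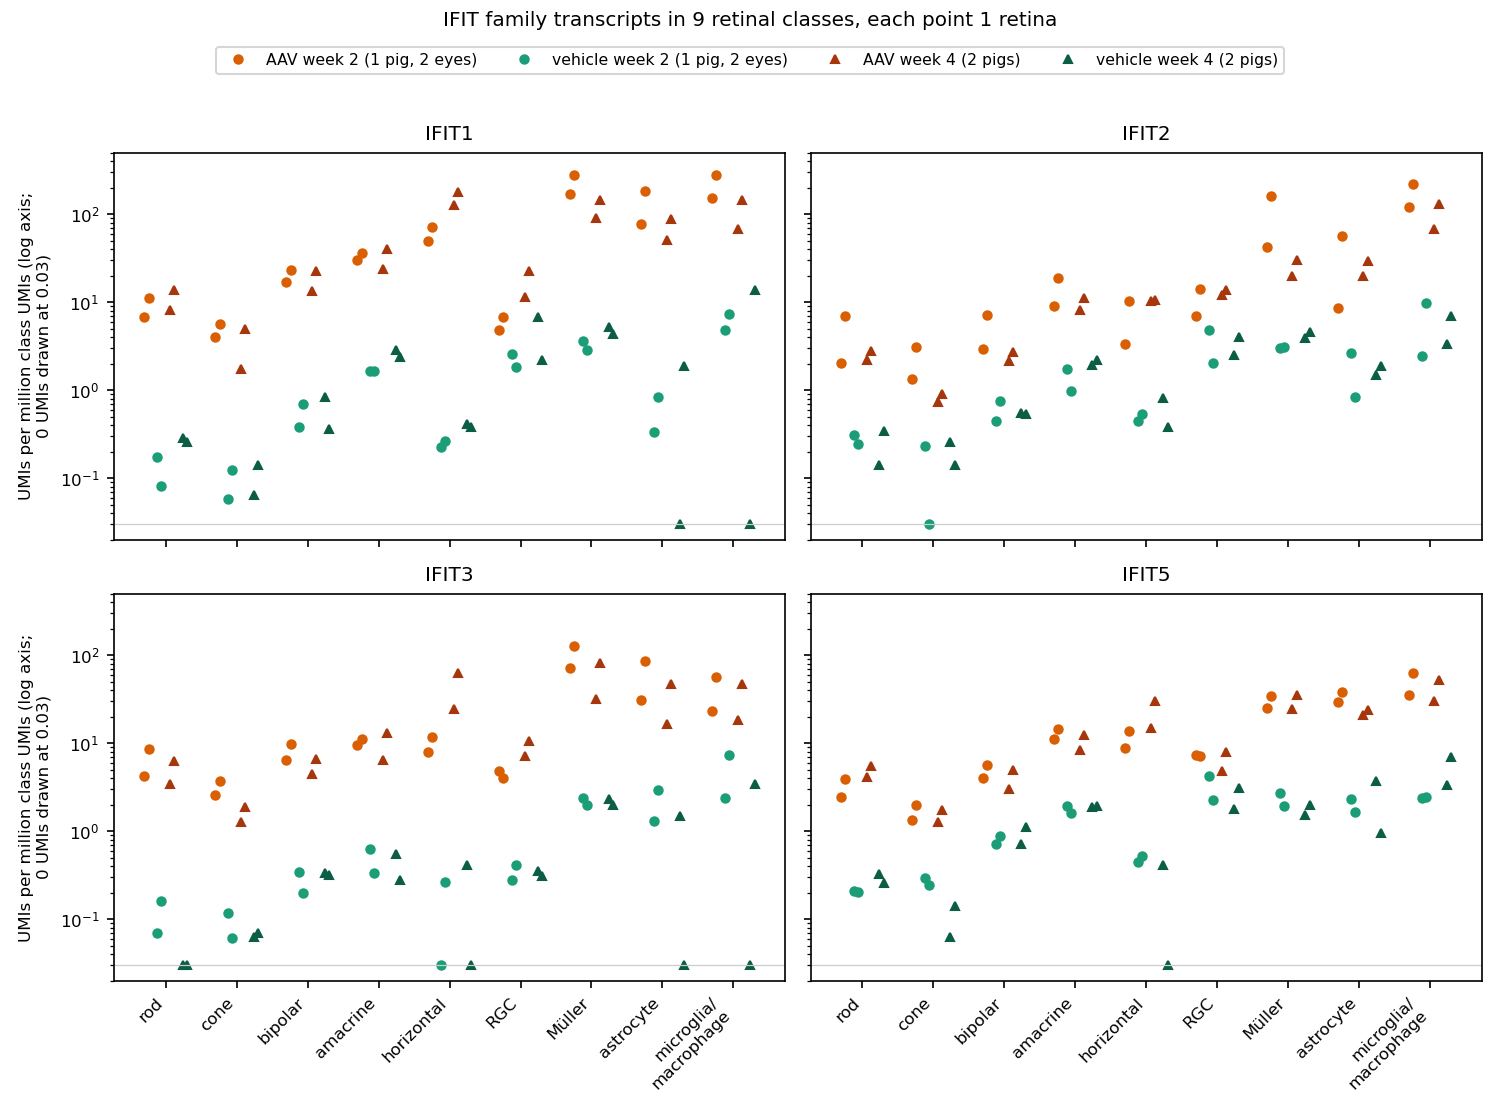
UMIs of each member as CPM of the class (log axis) in 9 retinal classes, each point 1 retina, coloured by arm and week, with 0 UMIs drawn at 0.03. In every panel and class the AAV-injected retinas lie above the vehicle-injected retinas of the same week.

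At week 4 the AAV effect was tested in each class over 2 pigs per arm with edgeR's quasi-likelihood test on the summed UMIs of all genes, with Benjamini-Hochberg adjustment over the genes of the class and a threshold of 0.05. The members were higher in 31 of 36 tests, and all 36 had an unadjusted p under 0.05. Many other genes were under that unadjusted mark, in either direction: 5175 of 19569 in rods, 3708 of 20531 in bipolar cells and 2343 of 16451 in cones. In rods, all 4 members rose, where 4.81% of all genes tested were called higher. The same held for bipolar cells (1.4% of genes), amacrine cells (1.92%), horizontal cells (3.43%), Müller glia (11.9%) and astrocytes (8.51%). In retinal ganglion cells (RGCs, 2.78% of genes) IFIT1, IFIT2 and IFIT3 rose, and in the microglia and macrophage class (6.95%) IFIT1, IFIT2 and IFIT5 rose. The microglia and macrophage class is 1 cluster, named from a list that holds genes of both cell types. It held 2059 and 1251 nuclei in the AAV-injected pigs and 151 and 146 in the vehicle-injected pigs. Whether its makeup differed between the arms was not tested, for any member. In cones, where 0.565% of genes were called higher, IFIT3 rose and the other 3 did not pass. The median log2 fold change of all genes tested lay between -0.0053 and 0.030 in these 9 classes.

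IFIT1, the cap-sensing member, rose in 8 of 9 classes with a median log2 fold change of 4.92. In Müller glia its level was 89.9 and 143 CPM in the AAV-injected pigs and 5.18 and 4.31 CPM in the vehicle-injected pigs, a log2 fold change of 4.58 ± 0.27 (SE, n = 2 per arm, adjusted p = 9.2e-05 by edgeR). In horizontal cells, interneurons of the outer retina, it stood at 126 and 177 CPM from 317 and 419 UMIs, while each vehicle-injected pig gave 1 UMI (0.409 and 0.380 CPM). The ratio of the summed levels in horizontal cells was 383, with a counting interval of 106 to 3170. The fitted log2 fold change there was 8.37 ± 0.38 (adjusted p = 1.7e-06 by edgeR). Astrocytes read 50.1 and 88.8 CPM against 0 and 1.90 CPM, and the microglia and macrophage class read 68.2 and 144 CPM against 0 and 13.8 CPM.

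Among the neurons, amacrine cells gave 23.8 and 39.9 CPM of IFIT1 against 2.85 and 2.38 CPM, a log2 fold change of 3.61 ± 0.27 (adjusted p = 2.4e-04 by edgeR). Bipolar cells gave 13.5 and 22.7 CPM against 0.836 and 0.3598 CPM. Rods gave 8.19 and 13.7 CPM against 0.282 and 0.257 CPM. RGCs, the projection neurons, gave 11.5 and 22.3 CPM against 6.80 and 2.18 CPM, a log2 fold change of 1.99 ± 0.46 (adjusted p = 0.036 by edgeR), the smallest log2 fold change of IFIT1 in the 9 classes. Cones gave 1.73 and 4.97 CPM against 0.0637 and 0.141 CPM and did not pass (log2 fold change 5.02 ± 0.83, adjusted p = 0.057 by edgeR). Among RGC nuclei without an EGFP UMI, the level was 9.02 and 20.0 CPM from 14 and 28 UMIs, against 4.33 CPM over both vehicle-injected pigs, and the call was lost with a similar size (log2 fold change 1.76, adjusted p = 0.12 by edgeR). Over all RGC nuclei, leaving out 1 pig at a time gave log2 fold changes from 1.34 to 2.98, with the highest without vehicle pig 1. The microglia and macrophage call was lost without vehicle pig 1 (log2 fold change 3.10, adjusted p = 0.067 by edgeR), among nuclei of at least 1000 UMIs (3.91, adjusted p = 0.054) and among nuclei that passed the gate on their own markers (3.78, adjusted p = 0.11), and without vehicle pig 2 the fit reached 10.05 in astrocytes and 11.62 in the microglia and macrophage class, where vehicle pig 1 was at 0.

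IFIT2, which associates with IFIT3 and with the translation factor eIF3, also rose in 8 of 9 classes, with a median log2 fold change of 2.50. Its highest level was in the microglia and macrophage class, with 68.0 and 132 CPM in the AAV-injected pigs and 3.38 and 6.92 CPM in the vehicle-injected pigs. The log2 fold change there was 4.37 ± 0.76 (adjusted p = 0.0089 by edgeR), although the vehicle level rests on 1 and 2 UMIs. Müller glia gave 19.7 and 29.8 CPM against 3.86 and 4.54 CPM, a log2 fold change of 2.50 ± 0.26 (adjusted p = 9.6e-04 by edgeR). Astrocytes gave 19.7 and 29.2 CPM against 1.47 and 1.90 CPM.

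In neurons the IFIT2 levels of AAV-injected pigs were 12.1 and 13.6 CPM in RGCs against 2.51 and 4.04 CPM, and 10.3 and 10.6 CPM in horizontal cells against 0.819 and 0.380 CPM. Amacrine cells read 8.05 and 10.99 CPM against 1.90 and 2.20 CPM. Bipolar cells and rods were lower, at 2.15 and 2.69 CPM and at 2.18 and 2.80 CPM. Cones had 11 and 16 UMIs against 4 and 2 UMIs, and IFIT2 did not pass there (log2 fold change 2.04 ± 0.58, adjusted p = 0.20 by edgeR). The bipolar call was lost without AAV pig 2 (log2 fold change 1.99, adjusted p = 0.085 by edgeR) and without vehicle pig 2 (2.16, adjusted p = 0.058). The Müller value fell to 1.40 (adjusted p = 0.11 by edgeR) when only nuclei whose own class's marker list was the highest of all lists, with at least 2 UMIs, were used, and the microglia and macrophage call was lost in the same way (4.31, adjusted p = 0.065).

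IFIT3, the partner that stabilizes IFIT1, rose in 8 of 9 classes with a median log2 fold change of 4.64. Rods of the 2 vehicle-injected pigs held 0 UMIs of IFIT3, while those of the AAV-injected pigs held 156 and 393 UMIs (3.47 and 6.37 CPM). Against a floor of 3 counts over the vehicle group, the rod level was at least 56.5-fold higher. Müller glia gave 32.0 and 81.5 CPM against 2.32 and 2.00 CPM, a log2 fold change of 4.65 ± 0.49 (adjusted p = 0.0010 by edgeR). Horizontal cells gave 24.7 and 63.5 CPM from 62 and 150 UMIs, against 1 UMI in vehicle pig 1 and 0 in vehicle pig 2. Their ratio was 221, with a counting interval of 39.2 to 8760.

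RGCs held 24 and 33 UMIs of IFIT3 (7.24 and 10.6 CPM) against 1 UMI in each vehicle-injected pig, a ratio of 26.7 with a counting interval of 7.06 to 226. Amacrine cells gave 6.46 and 13.3 CPM against 0.555 and 0.279 CPM, and bipolar cells gave 4.45 and 6.67 CPM against 0.334 and 0.315 CPM. In cones, 19 and 33 UMIs stood against 1 and 1, and the call rests on these few UMIs (log2 fold change 4.45 ± 0.65, adjusted p = 0.035 by edgeR). That call was lost without AAV pig 2, vehicle pig 1 or vehicle pig 2 in turn (adjusted p = 0.086, 0.097 and 0.076 by edgeR), with log2 fold changes of 4.07, 4.41 and 4.498. The microglia and macrophage class gave 18.6 and 47.3 CPM against 0 and 3.46 CPM, and IFIT3 did not pass there (log2 fold change 4.32 ± 1.35, adjusted p = 0.081 by edgeR). Without vehicle pig 2, which held the only vehicle UMI, the fit there gave 9.92 (adjusted p = 0.13), and without AAV pig 1 it gave 4.81 and passed (adjusted p = 7.9e-05). Astrocytes held 46 and 75 UMIs of IFIT3 against 2 and 0 UMIs (log2 fold change 5.65 ± 0.97, adjusted p = 0.0089 by edgeR). The astrocyte value was 9.07 without vehicle pig 1, which left only the pig at 0 UMIs, and 4.39 without vehicle pig 2, and the call held in both.

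IFIT5, the triphosphate-RNA binder, rose in 7 of 9 classes with a median log2 fold change of 3.49. Its level was 24.3 and 35.5 CPM against 1.55 and 2.00 CPM in Müller glia, a log2 fold change of 4.02 ± 0.28 (adjusted p = 1.8e-04 by edgeR). The microglia and macrophage class gave 30.4 and 51.8 CPM against 3.38 and 6.92 CPM, and astrocytes gave 20.8 and 24.1 CPM against 3.68 and 0.949 CPM. Horizontal cells gave 15.1 and 30.1 CPM from 38 and 71 UMIs, while the vehicle-injected pigs held 1 and 0 UMIs. Amacrine cells gave 8.36 and 12.4 CPM against 1.90 and 1.92 CPM.

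In RGCs, IFIT5 stood at 4.83 and 8.07 CPM against 1.79 and 3.11 CPM and did not pass (log2 fold change 1.41 ± 0.47, adjusted p = 0.14 by edgeR). In cones it was 1.27 and 1.77 CPM against 0.0637 and 0.141 CPM (log2 fold change 3.86 ± 0.61, adjusted p = 0.051 by edgeR). The bipolar call (log2 fold change 2.16 ± 0.36) was lost without AAV pig 2 (1.75, adjusted p = 0.11 by edgeR), without vehicle pig 1 (1.86, adjusted p = 0.066) and under the marker gate (2.09, adjusted p = 0.12). The microglia and macrophage call was lost without vehicle pig 1 (2.72, adjusted p = 0.10 by edgeR) and without vehicle pig 2 (3.76, adjusted p = 0.059), did not pass the filter on low counts without AAV pig 2, and was lost among nuclei of at least 1000 UMIs (2.95, adjusted p = 0.061) and under the marker gate (2.50, adjusted p = 0.16). In vascular cells no member passed the filter on low counts for this test within the class: IFIT1 gave 9 and 19 UMIs in the AAV-injected pigs and 0 and 2 UMIs in the vehicle-injected pigs.

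**Figure D3:**
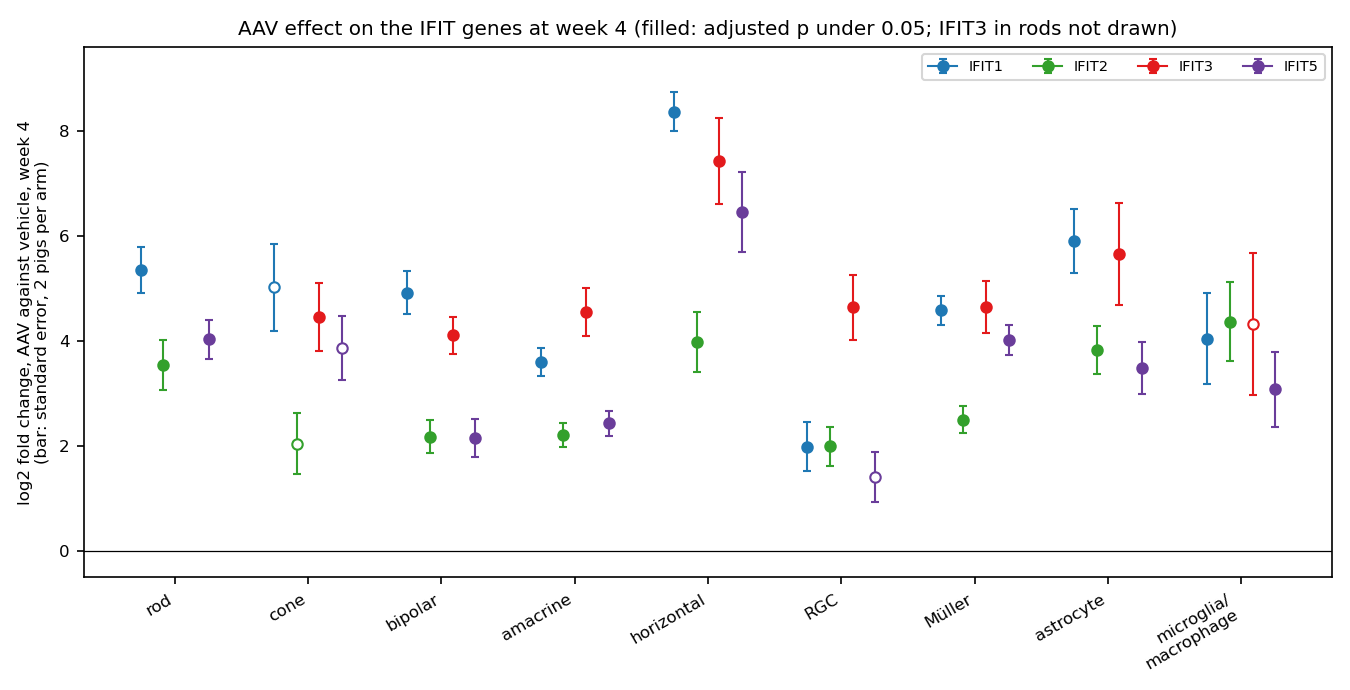
Log2 fold change of each member, AAV against vehicle at week 4, in 9 classes, with bars of 1 standard error over 2 pigs per arm and filled symbols where the adjusted p was under 0.05. IFIT1 in horizontal cells is the highest value drawn (8.37) and IFIT5 in RGCs the lowest (1.41), and IFIT3 in rods is left out because its vehicle level was 0.

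At week 2, with 1 pig per arm, the AAV effect was not tested by itself and the eyes are given as values. IFIT1 in Müller glia was 170 CPM in the left and 279 CPM in the right AAV-injected eye, and 3.62 and 2.83 CPM in the vehicle-injected eyes. The microglia and macrophage class read 153 and 277 CPM of IFIT1 against 4.83 and 7.29 CPM, and astrocytes read 77.3 and 185 CPM against 0.331 and 0.832 CPM. Horizontal cells stood at 50.04 and 71.0 CPM of IFIT1 with 1 UMI in each vehicle-injected eye, and vascular cells at 130 and 191 CPM against 5.48 and 11.5 CPM. RGCs again showed the smallest separation of IFIT1, with 4.83 and 6.83 CPM against 2.54 and 1.84 CPM. Over the 9 classes the median log2 ratio of IFIT1 at week 2 was 5.77.

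The right eye of the AAV-injected pig of week 2 was above the left for most classes and members. IFIT2 in Müller glia was 41.7 CPM in the left eye and 160 CPM in the right eye, against 2.98 and 3.11 CPM with vehicle, and in astrocytes it was 8.64 and 55.8 CPM. The right eye was above the left in 9 of 9 classes for IFIT1 and IFIT2 and in 8 of 9 for IFIT3 and IFIT5. For IFIT2 the median ratio was 2.44 and the highest 6.47, in astrocytes. The corresponding median ratios were 1.42 for IFIT1, 1.498 for IFIT3 and 1.38 for IFIT5. At week 4, AAV pig 2 was above AAV pig 1 in 9 of 9 classes for every member, with median ratios of 1.68 for IFIT1, 1.28 for IFIT2, 2.05 for IFIT3 and 1.48 for IFIT5. The share of all genes with such an order was not counted at either week, and the 9 classes of a retina are not independent. The right eye of week 2 also had more EGFP (56.3 against 28.9 CPM). More of its Müller nuclei lay in the cluster that led in AAV-injected retinas (80.0% against 47.4%). Pig 1 and pig 2 of the AAV arm of week 4 were alike in both. They had 26.0 and 25.6 CPM of EGFP, and 80.4% and 80.7% of their Müller nuclei lay in that cluster. The part of EGFP and of the cluster in the differences between eyes or pigs was not tested. In the cluster that led in AAV-injected retinas, IFIT2 at week 2 stood at 63.7 CPM in the left eye (2530 nuclei) and 181 CPM in the right eye (4658 nuclei). In the cluster that led in vehicle-injected retinas it stood at 8.13 CPM (1501 nuclei) and 11.3 CPM (435 nuclei). IFIT1 read 219 and 304 CPM in the first of these clusters and 118 and 127 CPM in the other. The members and other interferon-stimulated genes were left out of the clustering, but it used other genes of the same nuclei, so the comparison is a description.

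Whether the AAV effect differed between the weeks was tested as an interaction over 6 pigs, with the eyes of a week 2 pig summed and the single pigs of week 2 assumed to vary like the others. Of 38 tests of members in 10 classes, 1 passed, where 0.594% of all gene and class tests passed. This was IFIT2 in Müller glia, whose AAV effect was smaller at week 4 than at week 2 by a log2 difference of -2.66 ± 0.39 (adjusted p = 0.024 by edgeR), in a class where 1.95% of genes were called lower at week 4. The summed levels were 112 CPM with the vector and 3.04 CPM with vehicle at week 2, and 22.4 and 4.203 CPM at week 4, which is 36.8-fold and 5.34-fold above vehicle (counting intervals 30.1 to 45.5 and 4.30 to 6.67). The error of this test holds no spread between animals at week 2. The value rests on the right eye: with the left eyes alone it was -1.25 (adjusted p = 0.17 by edgeR), and with the right eyes alone it was -3.16 (adjusted p = 0.016). IFIT1 in Müller glia had a difference of -1.55 ± 0.42 (adjusted p = 0.10 by edgeR). IFIT5 in Müller glia had one of 0.37 ± 0.43, and its levels were 25.1 and 34.2 CPM at week 2 and 24.3 and 35.5 CPM at week 4.

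With the vector, the order of the classes depended on the member. IFIT1 at week 2 was highest in Müller glia (224 ± 77.1 CPM, mean ± SD, n = 2 eyes), whose range overlapped that of the microglia and macrophage class (215 ± 87.9 CPM), followed by vascular cells, astrocytes, horizontal cells, amacrine cells, bipolar cells, rods, RGCs and cones. From astrocytes down to RGCs, each class was apart from the next in this order. These ranges are of 2 eyes of 1 pig and hold no spread between animals. Rods and RGCs were apart only by 6.853 against 6.828 CPM, from 78 and 24 UMIs. At week 4 horizontal cells led (152 ± 36.3 CPM, n = 2 pigs) with a range that overlapped Müller glia (116 ± 37.6 CPM), and cones were again the lowest (3.35 ± 2.28 CPM). IFIT2 was led at both weeks by the microglia and macrophage class, with 169 CPM at week 2 and 99.9 CPM at week 4, and at week 4 its range was apart from that of Müller glia (24.8 ± 7.09 CPM). IFIT3 was led by Müller glia and IFIT5 by the microglia and macrophage class at both weeks, in each case with ranges that overlapped the next class.

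The AAV effect of each class at week 4 was compared with the mean effect of the 9 other classes, with the animal as a block. This fit held 10 classes, with vascular cells and their 0 and 2 vehicle UMIs of IFIT1 among them, so vascular cells are part of the mean of the other classes. IFIT3 was left out because both vehicle-injected pigs were at 0 in some classes. Of 30 tests of the other members, 3 passed, against 2.84% of all gene and class tests. In horizontal cells the effect on IFIT1 was larger than in the other classes by 4.12 ± 0.88 on the log2 scale (adjusted p = 0.0079 by edgeR) and that on IFIT5 by 3.60 ± 0.94 (adjusted p = 0.038), where 1.12% of genes were called higher. In RGCs the effect on IFIT1 was smaller by a log2 difference of -3.12 ± 0.56 (adjusted p = 0.0063 by edgeR), where 0.203% of genes were called lower. IFIT5 in RGCs had a difference of -2.25 ± 0.54 and IFIT5 in bipolar cells one of -1.45 ± 0.38 (adjusted p = 0.058 for each by edgeR).

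All 3 of these differences depend on single vehicle-injected pigs, whose horizontal cells held 0 or 1 UMI of either gene. Without vehicle pig 1, IFIT1 gave 4.24 in horizontal cells (adjusted p = 0.076 by edgeR) and -1.96 in RGCs (adjusted p = 0.61). Without vehicle pig 2, IFIT1 in horizontal cells gave 1.37 (adjusted p = 1), while in RGCs it gave -6.53 (adjusted p = 0.014). IFIT5 in horizontal cells did not pass without any 1 of the 4 pigs, with differences from 2.65 to 7.19.

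The makeup of the family was read as the share of each member in the UMIs of the 4 genes. UMIs were counted at the 3′ end and not scaled for length, so shares are compared between classes and not between genes. IFIT2 made up 35.1% to 36.7% of the UMIs of the 4 genes in the microglia and macrophage class of all 4 AAV-injected retinas. Its share was 3.76% to 9.71% in horizontal cells and 10.3% to 26.6% in Müller glia, where the left and right eye of week 2 gave 13.5% and 26.6%. IFIT1 made up 63.0% to 71.6% of the family in horizontal cells and 20.0% to 40.8% in RGCs. In RGCs, IFIT2 made up 24.9% to 43.8% and IFIT5 13.6% to 30.9%. No test was made of these shares, which rest on 222 to 16191 family UMIs per group in the classes named.

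**Figure D4:**
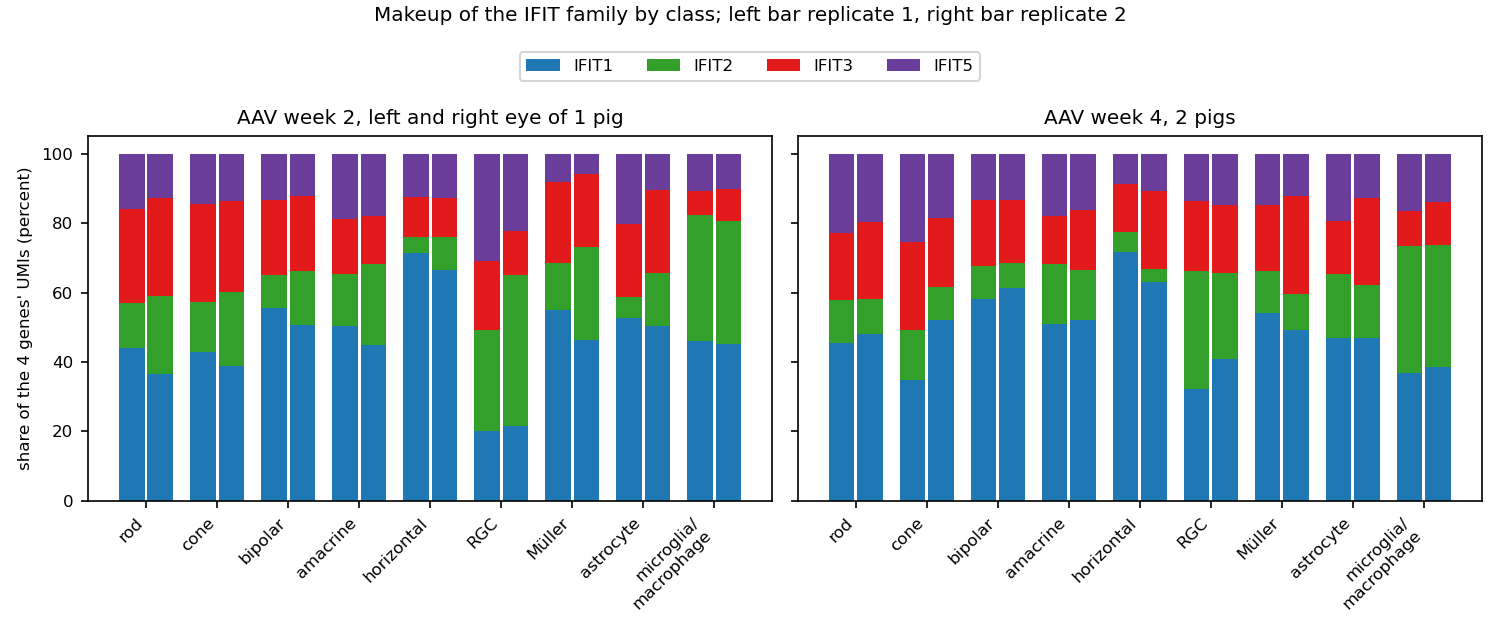
Share of the UMIs of the 4 genes taken by each member (percent), by class, for the AAV-injected retinas of week 2 and week 4, with the left bar of each pair replicate 1 and the right bar replicate 2. The IFIT2 share is 35.1% to 36.7% in the 4 bars of the microglia and macrophage class, and the IFIT1 share is 63.0% to 71.6% in those of horizontal cells.

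The share of nuclei with at least 1 UMI also moves with the depth of the nuclei, and the order of the classes by share was not that by CPM. Horizontal nuclei with an IFIT1 UMI were 51.0% and 64.5% in the AAV-injected pigs of week 4, against 0.305% and 0.244% with vehicle, at a median depth of 7602 and 8984 UMIs per nucleus. Thinned to 1000 UMIs per nucleus, with shallower nuclei left out, these shares were 11.12% and 14.9%. Müller nuclei with an IFIT1 UMI were 28.2% and 48.3% at week 2 and 29.8% and 45.2% at week 4, and thinned they were 14.3%, 21.4%, 7.97% and 13.0%. Cones of the same 4 retinas, at a median of 2760 to 4032 UMIs, held 0.529% to 2.14% of nuclei with an IFIT1 UMI, and rods, at a median of 1627 to 2132 UMIs, held 1.20% to 2.94%. Free RNA in droplets adds to all these shares, which were given no correction for it.

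Nuclei with a UMI of at least 1 member made up 42.3% and 67.9% of Müller nuclei at week 2 and 44.98% and 64.5% at week 4, against 2.53% to 2.84% with vehicle. Horizontal nuclei reached 58.9% and 76.6% at week 4, and the microglia and macrophage class 54.0% and 70.6% at week 2 but 31.9% and 59.9% at week 4. RGC nuclei gave 43.5% and 58.9% at week 4, against 19.7% and 15.7% with vehicle. The RGC share of AAV pig 1 was thus above that of its microglia and macrophage class, although its CPM was lower for each member, at a median depth of 17634.5 against 2513 UMIs per nucleus. UMIs of all 4 members in 1 nucleus were found in 11 and 101 Müller nuclei of the left and right AAV-injected eye of week 2, and in 9 Müller nuclei of each AAV-injected pig of week 4.

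Nuclei with an EGFP UMI were compared with nuclei without one in the 3 AAV-injected pigs, with the animal as a block, in 7 classes with at least 30 EGFP-positive nuclei per pig. The members were higher in EGFP-negative nuclei than in vehicle-injected nuclei of the same week in 21 of 21 pairs of pig and class for each member. Both AAV-injected pigs of week 4 were set against the same summed vehicle level, and the share of all genes with this order was not counted. Some pairs rest on few UMIs, such as 9 and 15 of IFIT2 in EGFP-negative cones of week 4. Against EGFP-negative nuclei, EGFP-positive nuclei passed the test in 2 of 28 comparisons, where 2.53% of all gene and class tests passed. Both were in amacrine cells, where 2.69% of genes were called higher in EGFP-positive nuclei. The amacrine class pooled 18 clusters, with median depths from 2381.5 to 9638.5 UMIs per nucleus. EGFP-positive and EGFP-negative nuclei were not matched for cluster or depth. IFIT2 was higher by 0.64 ± 0.14 on the log2 scale (adjusted p = 0.010 by edgeR), at 21.6 against 12.1 CPM in the pig of week 2, 10.4 against 7.78 CPM in pig 1 of week 4 and 11.9 against 10.9 CPM in pig 2. IFIT3 was higher by 0.53 ± 0.13 (adjusted p = 0.022), at 13.3 against 9.66, 10.0 against 6.04 and 18.1 against 12.6 CPM.

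The remaining comparisons of EGFP status did not pass. In horizontal cells, IFIT1 differed by -0.0030 ± 0.13 between EGFP-positive and EGFP-negative nuclei, at 117 against 127 CPM and 183 against 176 CPM in the pigs of week 4. In RGCs the log2 differences of the 4 members ran from -0.69 ± 0.34 for IFIT3 to 0.37 ± 0.31 for IFIT2, and in Müller glia from -0.0040 ± 0.17 for IFIT5 to 0.41 ± 0.12 for IFIT3 (adjusted p = 0.15 by edgeR). Counted over pigs and classes, EGFP-positive nuclei were above EGFP-negative nuclei in 12 to 14 of 21 pairs per member. In the pig of week 2, IFIT2 in amacrine cells was 10.2 against 8.83 CPM in the left eye and 26.0 against 15.7 CPM in the right eye, which had more EGFP-positive amacrine nuclei (1211 against 551). With the left eye alone for that pig, neither call held (IFIT2 0.25, adjusted p = 0.62, and IFIT3 0.51, adjusted p = 0.11 by edgeR), and with the right eye alone both did (0.56, adjusted p = 0.015, and 0.52, adjusted p = 0.028). Without the pig of week 2 both amacrine calls were lost (IFIT2 0.28, adjusted p = 0.76, and IFIT3 0.61, adjusted p = 0.14 by edgeR), and IFIT3 was also lost without pig 1 of week 4 (0.49, adjusted p = 0.075). With EGFP-positive set from 2 EGFP UMIs, IFIT2 was higher by 1.05 (adjusted p = 0.0055 by edgeR) and IFIT3 by 0.82 (adjusted p = 0.051). EGFP-negative nuclei are those without an EGFP UMI at this depth and may hold the vector. EGFP-positive nuclei may in turn hold free EGFP RNA, for which no correction was made. In pig 1 and pig 2 of week 4, 44 of 1377 and 68 of 1331 B/plasma nuclei held an EGFP UMI. Among rod nuclei of these pigs the counts were 992 of 21307 and 1127 of 25563. The part of free RNA in these counts was not tested.

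**Figure D5:**
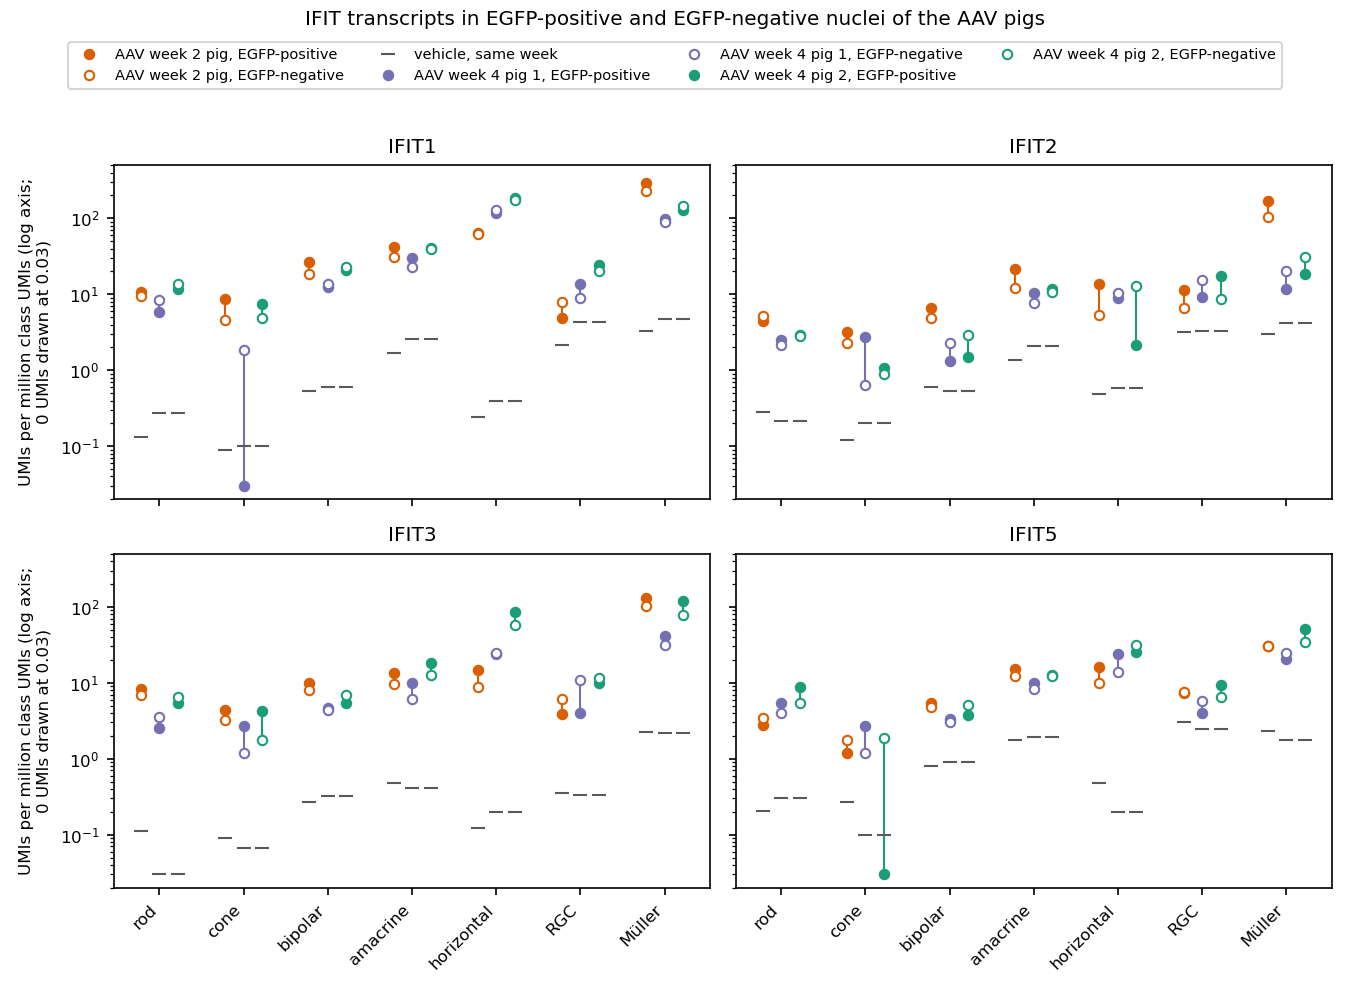
UMIs of each member as CPM of the class (log axis) in EGFP-positive and EGFP-negative nuclei of the 3 AAV-injected pigs and in the vehicle-injected retinas of the same week, in 7 classes, with 0 UMIs drawn at 0.03. EGFP-negative nuclei lie above vehicle in every class and pig, and EGFP-positive nuclei lie on either side of them, with cones of 1 pig at 0 UMIs for IFIT1 and of another for IFIT5.

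The genes that act above the family were read from lists by role at week 4, counting each gene in each of the 9 classes as 1 test. Over all genes, 4.502% of 148005 such tests were called higher and 3.25% lower. Of the interferon genes themselves, 4 of the 6 listed were in the count tables and IFNE alone had enough UMIs to be tested, with 1 of 7 tests called, lower in astrocytes (log2 fold change -1.04 ± 0.24). Of the receptors and ISGF3 subunits, 37 of 63 tests were called higher. STAT2 and IRF9, both subunits of ISGF3, rose in 7 of 9 classes each (median log2 fold changes 1.77 and 2.64). IFNAR1 and IFNAR2, the receptor chains, rose in 6 and 7 classes, and TYK2, the receptor kinase, passed in 0 of 9 by edgeR (0 of 9 at an unadjusted p under 0.05), with log2 fold changes from -0.57 to -0.031.

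Among the IRF factors 23 of 44 tests were called higher. IRF7 rose in 8 of 8 classes (median log2 fold change 3.57) and IRF1 in 8 of 9 (3.62), and IRF3 in 1 of 9 (0.18). Of the double-stranded RNA sensors and adaptors 28 of 49 tests were called higher: the sensors IFIH1 and DHX58 rose in 9 of 9 classes and RIGI in 8 of 9, with median log2 fold changes of 6.09, 4.56 and 3.79. The adaptor MAVS had log2 fold changes from -0.32 to 0.72 and passed in 0 of 9 by edgeR (0 of 9 at an unadjusted p under 0.05). Other antiviral effectors were called higher in 78 of 85 tests, with MX1, MX2, EIF2AK2, HERC5 and BST2 higher in 9 of 9 classes. The feedback inhibitors were called higher in 11 of 17 tests, of which USP18 gave 8 of 9 (median 4.25).

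The genes whose products act beside the IFIT proteins were read in the same way. The cap methyltransferases were called higher in 4 of 26 tests, 2 of CMTR1 and 2 of RNMT. CMTR1 and CMTR2 add the 2′-O mark that hides an RNA from IFIT1, and RNMT does not. The median log2 fold changes were 0.42 for CMTR1, 0.25 for CMTR2 and 0.11 for RNMT. The eIF3 subunits were called higher in 2 of 18 tests, both of EIF3A (median 0.33). Matches to the ISRE core were found in the windows of 6 of 10 antiviral effectors (OAS2, OASL, RSAD2, ISG15, HERC5 and BST2), of the sensor IFIH1 and of USP18, and in 0 of 7 windows of the receptors and ISGF3 subunits and 0 of 5 of the IRF factors.

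The neighbours of the family on chromosome 14 were called higher in 8 of 46 tests and lower in 2. FAS, a death receptor gene upstream of IFIT2, rose in 3 of 6 classes, and SLC16A12, a transporter gene next to IFIT5, rose in 3 of 8 with a median log2 fold change of 1.504. LIPA, which overlaps 3 members on the other strand, rose in rods and bipolar cells and fell in Müller glia among 9 classes, with log2 fold changes from -0.48 to 1.47. PANK1, a pantothenate kinase gene, fell in Müller glia by 1.08 on the log2 scale, and the log2 fold changes of KIF20B, a kinesin gene, ran from -0.20 to 0.46 with no call by edgeR and 1 of 9 at an unadjusted p under 0.05. The other features whose symbols start with IFIT, IFITM5 and IFITM10, had 437 and 783 UMIs in all, were each tested in 1 class and had log2 fold changes of -0.43 and 0.44.

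Over 98 columns of retina and class, the genes whose log2(CPM + 1) was most like that of a member were UBA7 (Pearson r = 0.92), TAP1 (0.91) and HERC6 (0.88) for IFIT1, and UNC93B1 (0.84), RIGI (0.82) and BST2 (0.80) for IFIT2. For IFIT3 they were RIGI (0.86), RSAD2 and CMPK2 (0.85 each), and for IFIT5 they were ISG12(A) (0.86), UBE2L6 (0.83) and BST2 (0.81). Between members r ran from 0.72 for IFIT2 with IFIT5 to 0.87 for IFIT2 with IFIT3. The columns share retinas and differ in depth, so these values are a description, and with the 91 columns of at least 30 nuclei the leading gene was RSAD2 for IFIT1 (0.95), RIGI for IFIT2 (0.89), LGALS3BP for IFIT3 (0.94) and OAS2 for IFIT5 (0.90).

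Markers of other cell classes were read in each class as well. The 12 markers of the microglia and macrophage class summed to 14.5 to 38.4 CPM in the 8 other classes of the AAV-injected pigs of week 4 and to 8.09 to 34.5 CPM with vehicle, with both AAV-injected pigs above both vehicle-injected pigs in 7 of 8 classes and 20 of 50 marker and class tests called higher. The 11 markers of T/NK cells were above vehicle in the same way in 8 of 9 classes, with 17 of 50 tests called higher. Their sum was 209 and 256 CPM against 27.0 and 41.5 CPM in the microglia and macrophage class, and 243 and 238 CPM against 256 and 208 CPM in horizontal cells. In the remaining classes it was at most 49.7 CPM. SKAP1 alone, which is 1 of these markers, stood at 215 CPM in horizontal cells over all 8 retinas. The 9 markers of B/plasma cells summed to 21.7 to 76.9 CPM against 11.2 to 74.4 CPM, above vehicle in 8 of 9 classes, with 10 of 31 called higher. JCHAIN alone, which is 1 of them, stood at 43.9 CPM in Müller glia and 45.9 CPM in astrocytes over all 8 retinas. The 8 Müller markers, in contrast, summed to 41.1 to 1998 CPM in the other classes of the AAV-injected pigs and to 71.4 to 2376 CPM with vehicle. The highest of these sums in both arms was that of astrocytes, and 2 of 56 tests were called higher. Müller nuclei themselves were fewer with the vector, at 2401 and 851 in the AAV-injected pigs of week 4 against 5737 and 6354 with vehicle. The part of all these markers in the IFIT levels was not tested.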

How the data were processed

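Nuclei sorted by DAPI from 8 frozen retinas of 6 pigs were sequenced in 32 lanes (10x 3′, 4 lanes per retina). Per the labels, the authors used Cell Ranger 8.0.0 with Sscrofa11.1 plus EGFP as the reference and deposited raw UMI counts per gene and nucleus, unnormalized, without cell types. The smallest barcode held 500 UMIs, and 6.95% to 12.9% of barcodes per retina were removed by a mixture model of mitochondrial share (miQC, posterior 0.75). From each lane 2500 nuclei were clustered (leidenalg 0.10.2, resolution 1, 30 components of 2000 variable genes, with the members and other interferon-stimulated genes, mitochondrial genes and EGFP left out), and the other nuclei took the cluster of their 20 nearest neighbours. Clusters were named by marker lists. Counts were summed per retina and class. Week 4, the difference between weeks, between classes and by EGFP status were tested with edgeR 4.0.16 (TMM, filterByExpr, quasi-likelihood) over all genes, and DESeq2 1.42.0 was an alternative. Intervals of ratios and shares are exact at 95% and cover counting error only. Transcripts were aligned with minimap2 2.31-r1302. The fits were tested on simulated counts. Other settings tried were no nuclear filter, at least 1000 UMIs per nucleus, resolution 0.5, a gate on each nucleus's own markers, other scalings and leaving out each pig. Right eyes alone for the week difference, single eyes of the week 2 pig for EGFP status, and alike genes over columns of at least 30 nuclei, were chosen after seeing the data.

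Named genes were the members, other symbols starting with IFIT, neighbours within 250 kb, lists by role, and for each member the 3 most alike genes of at least 5 CPM. One listed gene is not reported here by name. The members and lists were chosen with earlier results of these data known. IFNB1, IFNG, IFNK, IFNW1 and IFNL3 were not tested, DDX58 is listed as RIGI, and EIF3C had no row under that symbol. Lanes of 1 retina were summed and pigs are the replicates. With 2 per arm p-values rest on a spread estimated across genes. Coordinates and printed sequences follow RefSeq on Sscrofa11.1.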

Additional observations from a re-analysis of the deposited data

Results flagged for a closer look

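In 4 results a test of the difference itself passed for the AAV effect on a member. IFIT2 in Müller glia had a smaller AAV effect at week 4 than at week 2, by -2.66 on the log2 scale, but week 2 is 1 pig per arm and the call was lost with left eyes alone (-1.25, adjusted p = 0.17 by edgeR). IFIT1 in horizontal cells had a larger effect than the mean of the other classes at week 4, by 4.12, and IFIT5 in horizontal cells by 3.60, both over vehicle levels of 0 or 1 UMI per pig. Leaving out 1 pig at a time, the first of these ranged from 1.37 to 4.39 and was lost without vehicle pig 1 (adjusted p = 0.076 by edgeR) or vehicle pig 2 (adjusted p = 1), and the second ranged from 2.65 to 7.19 and was lost without any 1 of the 4 pigs. IFIT1 in RGCs had a smaller effect than the mean of the other classes, by -3.12, over 19 and 7 vehicle UMIs. It was -1.96 without vehicle pig 1 (adjusted p = 0.61 by edgeR) and -6.53 without vehicle pig 2 (adjusted p = 0.014). These 4 are the calls among 68 tests of members between weeks or classes.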

How the results depend on the processing

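Of the 31 calls at week 4, all 31 held with DESeq2, size factors by RLE, total UMIs, a filter of at least 1 count, no filter on nuclei, clusters at resolution 0.5 or all 6 pigs in 1 fit. At least 1000 UMIs per nucleus kept 29, EGFP-negative nuclei alone 30 and the gate on markers 26. Of the 5 tests that did not pass, 3 gained a call: IFIT1 in cones with no filter on nuclei, DESeq2, total UMIs, at least 1 count or all 6 pigs (adjusted p from 0.00046 to 0.044) and without either AAV pig; IFIT5 in cones under those 5, size factors by RLE (adjusted p from 0.0057 to 0.04951 over the 6) and without AAV pig 1; and IFIT3 in the microglia and macrophage class with no filter on nuclei (0.046), at least 1 count (2.0e-06) and without AAV pig 1. Leaving out 1 pig at a time, where the lone pig of an arm is assumed to vary like the others, IFIT1 was higher in 7 to 9 classes, IFIT2 in 7 to 8, IFIT3 in 7 to 9 and IFIT5 in 5 to 8. Calls between classes ranged from 0 to 2 and calls by EGFP status from 0 to 4. With left eyes only, 0 tests between weeks passed in edgeR, and with EGFP-positive set from 2 EGFP UMIs, 1 test passed. With the left eye alone for the pig of week 2, 0 tests by EGFP status passed in edgeR, an alternative chosen after seeing the data. The week 2 median log2 ratio of IFIT1 (5.77) was 5.48 in left eyes, 5.51 in right eyes, 6.01 with no filter on nuclei and 5.68 in EGFP-negative nuclei. Thinned to 1000 UMIs, the mean share of Müller nuclei with a UMI in the 4 AAV-injected retinas was 14.2% for IFIT1 (37.9% unthinned), 6.89% for IFIT3 (21.1%) and 2.87% for IFIT5 (10.99%). No result changed direction under any of these alternatives. In vehicle-injected retinas 0 to 4 UMIs per pig of week 4 in horizontal cells and in the microglia and macrophage class limit the size of a fold. No paired analysis was possible because replicate numbers in the labels do not pair animals across the arms.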

Other observations

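T/NK and B/plasma cells entered no comparison, since the vehicle-injected retinas of week 4 held none of their nuclei. In the AAV-injected pigs of week 4, IFIT1 stood at 45.1 and 83.6 CPM in T/NK cells (128 and 175 UMIs) and at 18.4 and 32.3 CPM in B/plasma cells (48 and 98 UMIs). IFIT2 stood at 4.22 and 8.60 CPM in T/NK cells, against 68.0 and 132 CPM in the microglia and macrophage class of the same retinas. The retinal pigment epithelium held 7 and 2 UMIs of IFIT1 in those pigs.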
